A study of Homo sapiens with 4 samples.

Results

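The genes of the SMN complex were examined in RNA-Seq of SK-MEL-28 cells, a human melanoma line in long-term culture. They were taken by symbol from the deposited expression table, namely SMN1, SMN2, GEMIN2, GEMIN4, GEMIN5, GEMIN6, GEMIN7, GEMIN8, DDX20 (also called GEMIN3) and STRAP (also called UNRIP). All 10 were found among 25268 gene symbols, in 12 entries, because SMN1 and SMN2 each had 2 entries, which were added up. What the 2 entries of each gene stand for is not given in the sources used here. The cells had been transduced with a lentivirus carrying either an empty pTRIPZ vector (vector cells) or MYC under a Tet-inducible promoter (MYC cells), and each line was selected with geneticin (G418). It is not stated whether either line was a clone. Each line was harvested without doxycycline (Dox) and after 54 h with Dox, the drug that switches on the Tet-inducible promoter. This gave 4 libraries from 4 conditions, 1 library per condition. No replicate backs any difference given here, and no test between conditions was possible. The values are FPKM, fragments per 1000 bases of transcript and per 1000000 mapped fragments, which can be compared between genes because they are divided by transcript length. FPKM are shares of a library, so a change in total RNA per cell is not visible in them.

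The SMN complex assembles the small nuclear ribonucleoproteins (snRNPs) of the spliceosome. In the cytoplasm it places a ring of Sm proteins on each newly exported U snRNA, after PRMT5 and its partners have methylated arginines in the tails of some Sm proteins. The assembled particle then receives a hypermethylated cap, returns to the nucleus and passes through Cajal bodies before it joins the spliceosome. SMN is the central protein of the complex and is encoded by the near-identical genes SMN1 and SMN2, and loss of SMN1 causes spinal muscular atrophy.

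Promoter sequences are shown for the pair of genes that rose most with Dox in MYC cells, GEMIN5 and GEMIN4, for GEMIN7, which held the letters CACGTG, and for GEMIN8, the only member that was not highest in Dox-treated MYC cells. MYC binds E-box letters with its partner MAX, so the 250 bases before each annotated start were searched for CACGTG, which reads the same on both strands, and for the variant CACGCG on either strand (CGCGTG when read on the printed strand). Of the 10 members, 8 were in the RefSeq promoter table (GRCh38.p14), with 10 windows, and SMN1 and SMN2 were not. Matches are in capitals, and every sequence runs from 5′ to 3′ on the strand of its gene and ends at the base before the start.
GEMIN5, chr5:154938212-154938461, minus strand: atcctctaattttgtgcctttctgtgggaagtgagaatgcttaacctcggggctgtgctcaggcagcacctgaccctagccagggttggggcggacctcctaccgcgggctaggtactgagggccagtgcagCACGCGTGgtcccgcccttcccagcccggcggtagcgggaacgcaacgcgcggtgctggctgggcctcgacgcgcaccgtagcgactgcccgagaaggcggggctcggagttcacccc
GEMIN4, chr17:752265-752514, minus strand: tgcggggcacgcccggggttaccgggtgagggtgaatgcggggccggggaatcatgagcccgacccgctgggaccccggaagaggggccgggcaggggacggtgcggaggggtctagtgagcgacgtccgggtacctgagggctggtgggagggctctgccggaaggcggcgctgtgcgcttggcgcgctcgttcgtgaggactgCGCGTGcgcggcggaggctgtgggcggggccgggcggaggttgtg
GEMIN7, second start, chr19:45078945-45079194, plus strand: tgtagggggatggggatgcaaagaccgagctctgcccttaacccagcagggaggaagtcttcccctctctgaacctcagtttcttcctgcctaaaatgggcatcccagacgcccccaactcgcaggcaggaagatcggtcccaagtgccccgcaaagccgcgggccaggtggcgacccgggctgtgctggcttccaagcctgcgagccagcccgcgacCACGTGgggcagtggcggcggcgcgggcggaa
GEMIN8, chrX:14029893-14030142, minus strand: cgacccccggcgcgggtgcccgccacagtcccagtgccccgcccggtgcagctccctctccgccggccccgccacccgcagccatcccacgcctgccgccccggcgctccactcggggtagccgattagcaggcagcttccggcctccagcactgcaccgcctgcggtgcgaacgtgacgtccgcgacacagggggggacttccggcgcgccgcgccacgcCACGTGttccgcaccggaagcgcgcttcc
GEMIN5 had 2 overlapping matches to CACGCG, the first beginning 118 bases before the start, and GEMIN4 had 1 match, beginning 45 bases before the start. Neither held CACGTG. The letters CACGTG were found in the GEMIN8 window, beginning 29 bases before the start, and in the windows of 2 overlapping starts of GEMIN7. No match to either motif was found in these windows of GEMIN2, GEMIN6, DDX20, STRAP or the first start of GEMIN7. Over all 35116 windows of this length in the table, 6.34% held CACGTG and 9.72% held CACGCG. Counted by gene, among the 8381 genes with a window and a mean of 1 FPKM or more, 11.8% held CACGTG and 20.5% held CACGCG, and each motif was found in 2 of the 8 members. Whether these letters have a part in any change with Dox was not tested.

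MYC, the gene placed under the Tet-inducible promoter, had 58.3 FPKM in untreated vector cells, 54.8 FPKM with Dox, 76.5 FPKM in untreated MYC cells and 87.1 FPKM with Dox. The log2 change of MYC with Dox was only 0.19 in MYC cells, 1.14-fold, which ranked 2973rd of 11147 genes, and -0.09 in vector cells. Without Dox MYC was already higher in MYC cells than in vector cells, by 0.39 on the log2 scale, a larger difference than the rise with Dox. Differences between the libraries thus stand for cell line and Dox, and not for a large step in MYC FPKM. The paper reports induction of MYC by Dox in the MYC cells, from higher MYC mRNA in RT-PCR and higher activity of an E-box reporter. Whether the FPKM of MYC include reads from the introduced gene is not given in the sources used here. The size of the induction can therefore not be read from these FPKM. The 7 melanocyte markers examined were all present in every library, and their summed FPKM was 7911, 7872, 7771 and 4414 in the same order. In MYC cells 4 of the 7 were at least 1.5-fold lower with Dox, against 8.85% of all genes, and any part of this in the results for the SMN complex was not tested. Markers of keratinocytes, fibroblasts and endothelium were at or near 0, with sums of at most 0.406 FPKM per list. Of the immune markers PTPRC and CD3E were near 0, while CD68, a lysosomal gene, was present. The approximate depth, derived from the steps between very low values, was 35.3 to 42.3 in units of 1000000 fragments.

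Levels of the 10 genes spanned a wide range in every library. STRAP was the highest, with 113 FPKM in untreated vector cells, 111 FPKM with Dox, 119 FPKM in untreated MYC cells and 131 FPKM with Dox. GEMIN8 was the lowest, with 1.93, 2.13, 2.001 and 1.94 FPKM in the same order. From the highest to the lowest, the order in untreated vector cells was STRAP, GEMIN6, SMN1, GEMIN7, SMN2, GEMIN4, DDX20, GEMIN2, GEMIN5 and GEMIN8. The order was the same in all libraries but for SMN2 and GEMIN4, neighbors at 13.7 and 13.4 FPKM in that library, which changed places in both libraries with Dox. SMN2 takes its place from the sum of its 2 entries, which had 5.57 and 8.18 FPKM in untreated vector cells. Each alone was below GEMIN2, at 9.54 FPKM there. STRAP and GEMIN6 together made up 59.9% of the summed FPKM of the 10 genes in untreated vector cells and 55.8% in Dox-treated MYC cells.

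**Figure D1:**
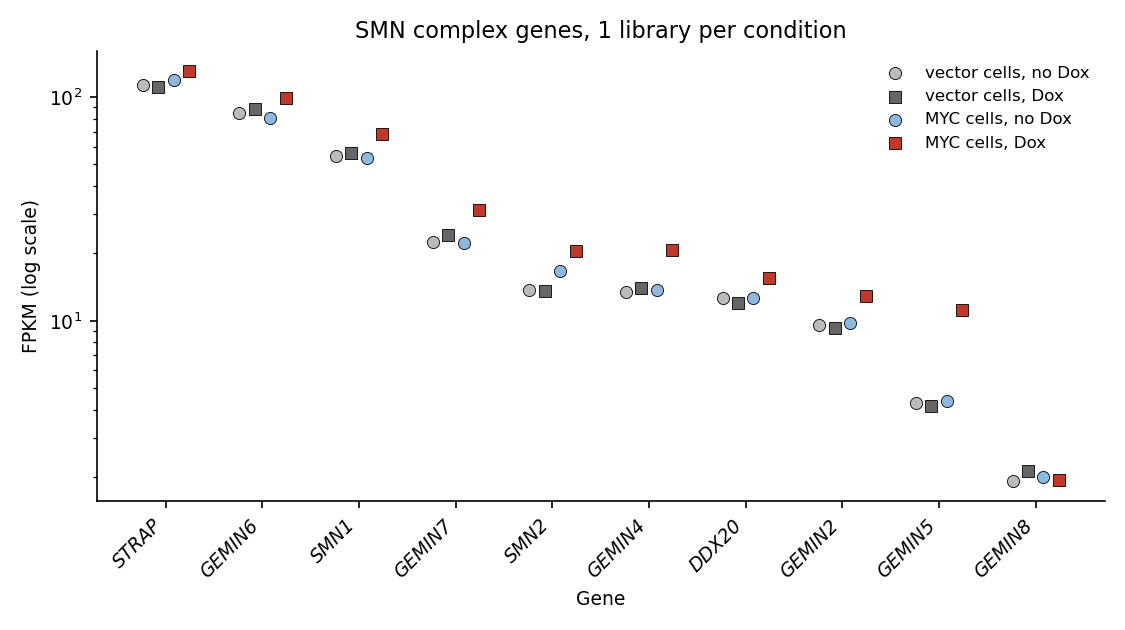
FPKM of the 10 SMN complex genes on a log scale, ordered by their level in untreated vector cells, with 1 point per library (circles without Dox, squares with Dox). The red squares, Dox-treated MYC cells, lie above the other points for 9 genes, and the gap is widest for GEMIN5, at 11.1 FPKM against 4.14 to 4.39 FPKM.

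With Dox in MYC cells, SMN complex genes were higher as a group, and GEMIN5 stood apart from the others. The change of a gene was taken as the difference in log2(FPKM + 0.1), a scale that makes changes of weakly expressed genes look smaller, over the 11147 genes that averaged 1 FPKM or more. All 10 members were among these. In MYC cells 9 of the 10 had higher values with Dox, against 46.8% of all genes. The median log2 change of the 10 was 0.33, against -0.03 for all genes. The robust SD (a scaled median absolute deviation) over all genes was 0.36 in MYC cells and 0.11 in vector cells. The share of all genes with a lower change in MYC cells was 48.3% for GEMIN8, 67.6% for STRAP and 99.6% for GEMIN5. At least a 1.5-fold rise was seen for 2 members, GEMIN5 and GEMIN4, against 5.9% of all genes, and none fell 1.5-fold, against 8.85%. In vector cells 5 members had higher and 5 lower values with Dox, with 54.2% of all genes higher, and none changed 1.5-fold in either direction (0.709% of all genes rose and 0.44% fell that far). The median log2 change of the 10 in vector cells was 0.02, and that of all genes was 0.01.

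The 3 libraries other than Dox-treated MYC cells were close to each other for most members. The gap between the highest and the lowest of them was at most 0.14 on the log2 scale for 9 members, and 0.29 for SMN2. For 9 of the 10 members Dox-treated MYC cells had the highest of the 4 values, a pattern that 40.2% of all genes showed, and no member had its lowest value there, against 42.9% of all genes. Without Dox, no member differed 1.5-fold between the lines (0.592% of all genes were that much higher in MYC cells and 0.287% lower). With Dox, 2 members were at least 1.5-fold higher in MYC cells than in vector cells, GEMIN5 and SMN2, and 6.5% of all genes were. No member was that much lower, against 8.62%. When the change in vector cells was subtracted from that in MYC cells, GEMIN5 alone remained past 1.5-fold, against 5.85% of all genes. These comparisons share libraries and are not independent of each other.

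**Figure D2:**
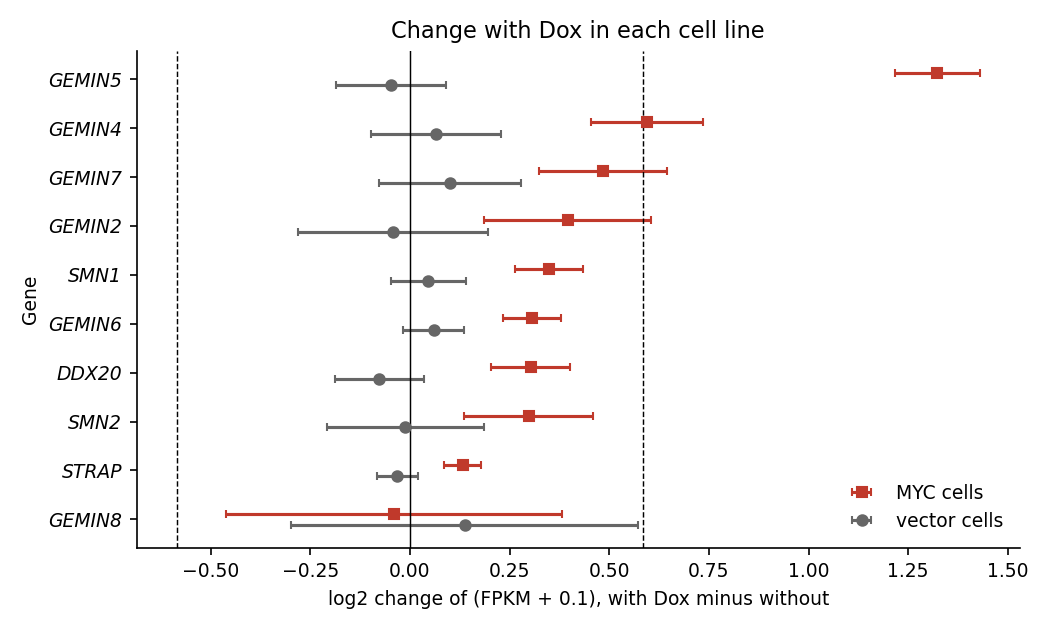
Change with Dox in MYC cells (red squares) and vector cells (grey circles) for each SMN complex gene, as the difference in log2(FPKM + 0.1), with bars for the approximate 95% counting interval and dashed lines at 1.5-fold. GEMIN5 lies at 1.32 in MYC cells and -0.05 in vector cells, and GEMIN8 has the widest bars.

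**Figure D3:**
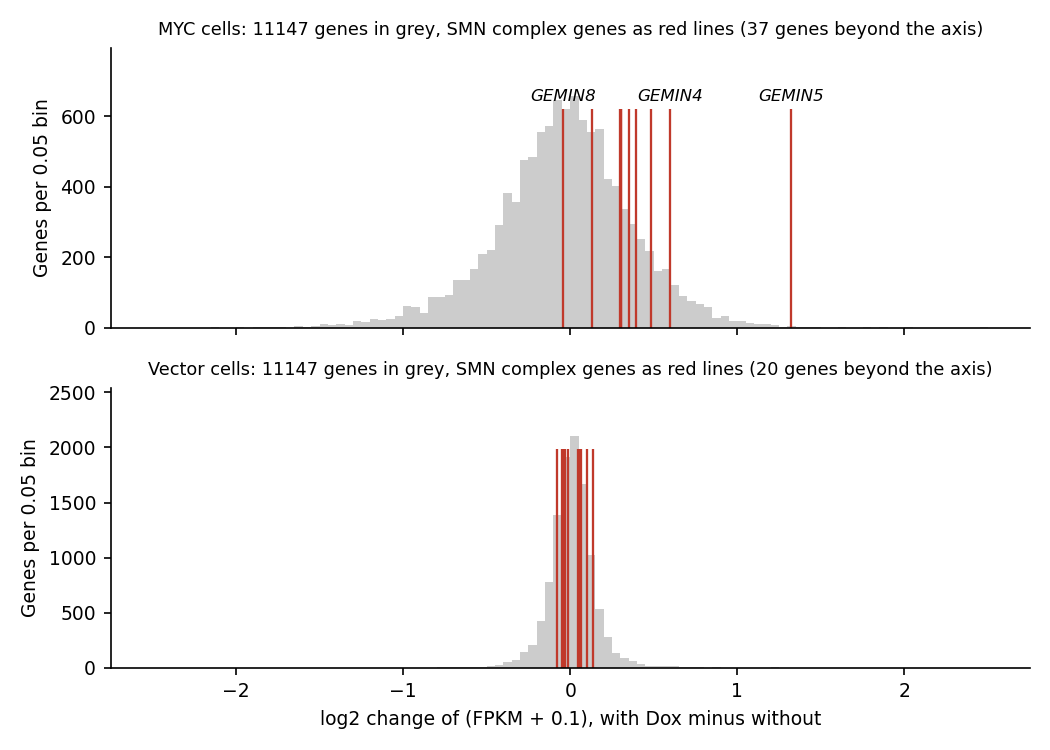
Distribution of the change with Dox, as the difference in log2(FPKM + 0.1), over 11147 genes in grey, with the 10 SMN complex genes as red lines, in MYC cells (top) and vector cells (bottom). In the top panel 9 red lines lie to the right of 0 and GEMIN5 lies in the far tail, while in the bottom panel all lie between -0.08 and 0.14.

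SMN and GEMIN2 form the core of the complex, in which GEMIN2 holds the Sm proteins before they are placed on the snRNA. SMN1 (chr5:70220857-70249769 on GRCh37, plus strand) and SMN2 (chr5:69345465-69374349, plus strand) are copies of one another, so fragments can rarely be assigned to either, and their sum is the firmer value. The sum had 68.4 FPKM in untreated vector cells, 70.0 FPKM with Dox, 70.4 FPKM in untreated MYC cells and 89.0 FPKM with Dox. The first 3 values lay close together and the last was above them, a log2 change of 0.34 in MYC cells and 0.03 in vector cells. Each of the 4 entries of the table was higher with Dox in MYC cells, by 0.35 and 0.35 on the log2 scale for SMN1 and by 0.23 and 0.35 for SMN2. The entries assigned to SMN2 differed between the lines already without Dox. SMN2 had 13.7 and 13.6 FPKM in vector cells and 16.7 and 20.6 FPKM in MYC cells, without and with Dox. SMN2 therefore made up 20.1% and 19.5% of the sum in vector cells and 23.7% and 23.1% in MYC cells. The split differed more between the lines than with Dox, and how the authors' pipeline divided fragments between the copies is not given in the sources used here. GEMIN2 (chr14:39583489-39606177, plus strand) had 9.54, 9.26, 9.74 and 12.8 FPKM in the order used above. It was highest in Dox-treated MYC cells, with a log2 change of 0.40 and an approximate counting error of 0.107. This error comes from the estimated number of fragments and leaves out any difference between cultures.

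GEMIN5 is the member that recognizes snRNAs and delivers them to SMN, and it also binds ribosomes and other RNAs. GEMIN5 (chr5:154266971-154317771, minus strand) had 4.28 FPKM in untreated vector cells, 4.14 FPKM with Dox, 4.39 FPKM in untreated MYC cells and 11.1 FPKM with Dox. Only the last library stood out, at 2.54 times the highest of the others. The log2 change of GEMIN5 was 1.32 in MYC cells, with a counting error of 0.0543, and -0.05 in vector cells, with a counting error of 0.0702. Its rise ranked 49th of 11147 genes in MYC cells. GEMIN5 moved from about 1004 to about 2380 estimated fragments, so counting error is small beside the change. GEMIN4, a partner of the helicase DDX20 in the complex, was next. GEMIN4 (chr17:647661-657239, minus strand) had 13.4, 14.02, 13.8 and 20.8 FPKM, with a narrow range in the first 3 libraries. Its log2 change was 0.60 in MYC cells, just past the 1.5-fold line at 0.58, and 0.06 in vector cells. The counting error of 0.0719 is wider than its distance from that line. DDX20, a DEAD-box RNA helicase (chr1:112297454-112318224, plus strand), had 12.7, 11.998, 12.6 and 15.6 FPKM. It was highest in Dox-treated MYC cells but by less than GEMIN4, with a log2 change of 0.30 and a counting error of 0.0508. GEMIN4 shares 158 exonic bases with DBIL5P on the opposite strand, which had at most 0.325 FPKM, and DDX20 shares 1036 with KCND3 on the opposite strand, which had at most 0.0107 FPKM.

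GEMIN6 and GEMIN7 form a dimer with a fold like that of Sm proteins, and GEMIN8 joins this dimer to SMN. GEMIN6 (chr2:38978676-39012144, plus strand) had 85.2, 88.8, 80.4 and 99.4 FPKM. The last library was highest, 1.12 times the highest of the other 3, and the log2 change was 0.31 in MYC cells and 0.06 in vector cells. GEMIN7 (chr19:45582453-45594776, plus strand) had 22.6, 24.2, 22.3 and 31.2 FPKM. Its log2 change was larger than that of GEMIN6, at 0.48 in MYC cells and 0.10 in vector cells, with counting errors of 0.0823 and 0.0911. GEMIN7 shares 103 exonic bases with PPP1R37, which went from 36.0 to 22.7 FPKM in MYC cells, and 1412 with the antisense GEMIN7-AS1, and whether the counting used strand is not stated. GEMIN6 stood at 3.61 times the FPKM of GEMIN7 in untreated MYC cells and 3.19 times with Dox. GEMIN8 (chrX:14024845-14048012, minus strand) was the exception in this group. Its 1.94 FPKM in Dox-treated MYC cells lay inside the range of the other 3 libraries, 1.93 to 2.13 FPKM. The log2 change of GEMIN8 was -0.04 in MYC cells and 0.14 in vector cells, with counting errors of 0.215 and 0.222 from about 94.7 estimated fragments in untreated MYC cells. These errors take the shortest coding transcript, and a longer one would give smaller errors. By this estimate a change of the size seen for DDX20 would be hard to see for GEMIN8, while one of the size of GEMIN5 would not. The pseudogene GEMIN8P4 had 2.20, 2.26, 2.91 and 2.18 FPKM, a level like that of GEMIN8, and their reads could have been shared.

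STRAP, a WD-repeat protein that joins the complex in the cytoplasm, was the most abundant member and moved least among those that were higher. STRAP (chr12:16035321-16056412, plus strand) was at 131 FPKM in Dox-treated MYC cells, 1.096 times its highest value in the other libraries. Its log2 change was 0.13 in MYC cells, with a counting error of 0.0238, and -0.03 in vector cells.

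The proportions of the members shifted most for GEMIN5. Per 100 FPKM of SMN1 and SMN2 together there were 6.27, 5.91 and 6.24 FPKM of GEMIN5 in the other 3 libraries and 12.5 FPKM in Dox-treated MYC cells. GEMIN4 went from between 19.5 and 20.02 FPKM to 23.4 FPKM per 100 FPKM of SMN1 and SMN2. GEMIN7 was at 35.04 FPKM against 31.6 to 34.6 FPKM, and GEMIN6 at 112 FPKM against 114 to 127 FPKM. DDX20 did not leave its range, with 17.5 FPKM against 17.1 to 18.5 FPKM. GEMIN2 was at 14.4 FPKM, just above a range of 13.2 to 13.96 FPKM. STRAP was lower on this scale, at 147 FPKM against 158 to 169 FPKM, and so was GEMIN8, at 2.18 FPKM against 2.82 to 3.04 FPKM. The sum over the 10 genes was 331, 335 and 335 FPKM in the other 3 libraries and 413 FPKM in Dox-treated MYC cells.

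The genes most like GEMIN5 in their pattern were sought by the distance between centered log2 profiles over the 4 libraries, among 7473 other genes averaging 5 FPKM or more. The nearest 5 were LYAR, a nucleolar protein, FKBP4, a co-chaperone of HSP90, SLCO4A1, an organic anion transporter, C10orf2, the mitochondrial DNA helicase Twinkle, and SOD2, the mitochondrial superoxide dismutase. Their distances ranged from 0.151 to 0.180, and 1998 of the 7473 genes lay within a distance of 1. LYAR went from 21.5 to 48.9 FPKM in MYC cells, with 21.2 FPKM in each library of vector cells. The profile rests mainly on the height of 1 library.

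Genes that act with the SMN complex were described by lists of partners. The Sm arginine methylation list had the highest median, a log2 change of 0.54 in MYC cells and 0.02 in vector cells, and all 6 genes were higher with Dox in MYC cells, against 46.8% of all genes. PRMT5, the methyltransferase, rose from 34.1 to 57.1 FPKM and RIOK1, an adaptor of PRMT5, from 8.06 to 12.9 FPKM, and these 2 of 6 genes passed 1.5-fold, against 5.9% of all genes. COPRS, another PRMT5 partner, had the lowest log2 change of the list, 0.24. RIOK1 and COPRS are in the list as partners of PRMT5, and whether they act on Sm proteins was not tested. Of the 8 Sm genes 7 were higher, against the same 46.8% of all genes, with a median of 0.39, and -0.01 in vector cells. SNRPF alone passed 1.5-fold, from 155 to 241 FPKM, and 1 of 8 is near the 5.9% of all genes. SNRPD2, the Sm gene with the highest FPKM, was level at 1024 and 1030 FPKM. SNRPN, a relative of SNRPB, had the lowest change, -0.09. The 5 specific proteins of the U1 and U2 snRNPs were all higher, against 46.8% of all genes. Their median was 0.40 in MYC cells and 0.07 in vector cells, where 4 were higher, against 54.2% of all genes. Among them the U2 protein SNRPA1 rose from 126 to 210 FPKM, and the U1 protein SNRNP70 had the lowest log2 change, 0.06.

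The lists for later and earlier steps of snRNP formation had lower medians. The 7 genes for snRNA export, capping and import had a median log2 change of 0.17 in MYC cells and -0.05 in vector cells. None passed 1.5-fold in MYC cells, where 5.9% of all genes rose and 8.85% fell that far. Few such genes would be found in a list of 7. In this list the export receptor XPO1 had the largest change, 0.22, and the import adaptor SNUPN the lowest, -0.17. For the 6 Cajal body genes the median was 0.16 in MYC cells and 0.07 in vector cells. All 6 were higher with Dox in both lines, against 46.8% of all genes in MYC cells and 54.2% in vector cells. NOLC1, which binds nucleolar and Cajal body RNPs, rose from 32.0 to 65.4 FPKM in MYC cells. COIL, the coilin gene, went from 6.65 to 8.78 FPKM, and SART3, a U6 snRNP recycling factor, had the lowest log2 change, 0.06. The 4 genes of the U7 snRNP and histone mRNA processing had a median of 0.16 in MYC cells, from 0.09 for SLBP to 0.40 for LSM10. In vector cells their median was 0.05. The 19 SNAPc and Integrator genes act in snRNA transcription and 3′ end formation. With Dox 14 were higher and 5 lower in MYC cells, with 46.8% of all genes higher. In vector cells 15 were higher, with 54.2% of all genes higher. The median of the list was 0.08 in vector cells and 0.18 in MYC cells. SNAPC4 rose from 4.46 to 9.84 FPKM and ASUN (INTS13) from 23.5 to 46.4 FPKM, and SNAPC2 had the lowest change, -0.23. Across these 7 lists no gene fell 1.5-fold in MYC cells, against 8.85% of all genes. No gene of the lists changed 1.5-fold in vector cells, where 0.709% of all genes rose and 0.44% fell that far, so few such genes would be found in lists of this size.

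**Figure D4:**
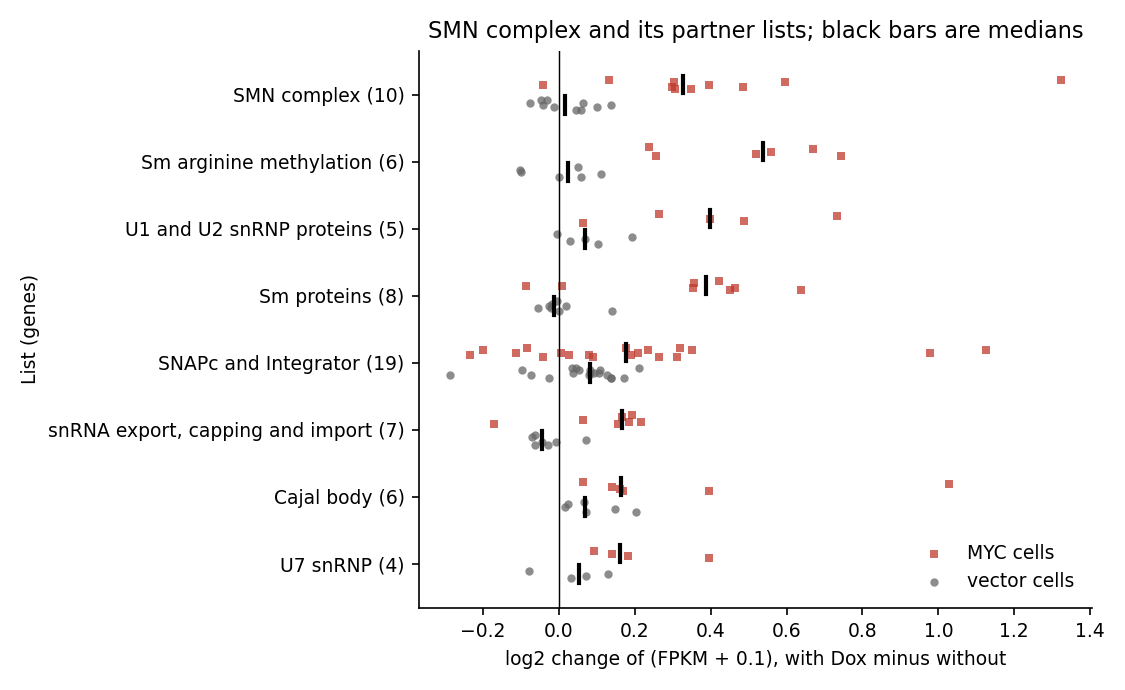
Change with Dox, as the difference in log2(FPKM + 0.1), for each gene of the SMN complex and 7 partner lists in MYC cells (red squares) and vector cells (grey circles), with black bars at the medians and the number of genes in parentheses. The MYC cell median is right of the vector cell median in every list, and the gap is widest for Sm arginine methylation, at 0.54 against 0.02.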

How the data were processed

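RNA-Seq was made from 4 libraries of SK-MEL-28 cells. FPKM values were deposited in a table with 1 or more rows per gene symbol, and the submitters' processing notes name TopHat2 2.0.14 and Cufflinks with hg19 and GRCh37. The annotation behind the FPKM values is not given in the sources used here. Of 27032 rows, 1 had no gene name and was dropped, and the entries of 609 repeated symbols were summed. FPKM values are not counts and each condition has 1 library, so no model was fitted. Differences of log2(FPKM + 0.1) were described over 11147 genes, and a call was a change of at least 1.5-fold. The members, partner lists and settings were chosen with earlier results of these data known. The named genes are the members, MYC, the genes of each partner list past 1.5-fold, the largest and the lowest change of each list, and the 5 nearest profiles to GEMIN5. Other genes, such as COIL, SNRPD2 and those that overlap a member, were chosen after their values were seen.

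Depth was estimated from 157 low genes with a single transcript, whose quartiles were 34.4 and 41.2, in units of 1000000 fragments, for untreated vector cells. They came from the 1638 of 4984 low genes (32.9%) whose values could be read as whole multiples of a common step. Counting errors used the shortest coding transcript of each gene in GENCODE release 44 on GRCh37 and cover counting only. The calculations were tested on simulated data. Alternatives were other pseudocounts, filters, scalings, references and thresholds, the mean of a list, and the sum of SMN1 and SMN2. Taking the mean of the other 3 libraries as the reference was chosen after seeing the data. Promoters came from RefSeq on GRCh38.p14. The software was Python 3.11.15 with pandas 2.3.3, numpy 2.4.6 and matplotlib 3.10.9.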

Additional observations from a re-analysis of the deposited data

Results flagged for a closer look

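For 6 of the 10 SMN complex genes the change with Dox had opposite signs in MYC and vector cells. The share of all genes with opposite signs was not counted, so this number is not read as a result about the members. Of all genes, 46.8% were higher with Dox in MYC cells and 54.2% in vector cells. The difference between the changes was not tested, since each condition has 1 library. It was 1.37 on the log2 scale for GEMIN5, 0.44 for GEMIN2, 0.38 for DDX20, 0.31 for SMN2 and 0.16 for STRAP, which were higher with Dox in MYC cells and lower in vector cells. For GEMIN8 it was -0.18, in the other direction. In vector cells the changes of these 6 genes were between -0.08 and 0.14, and the robust SD over all genes there was 0.11.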

How the results depend on the processing

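No paired analysis was possible because there was 1 library per condition and no replicate number. Of 108 recalculated summary values, 104 moved by less than the robust SD of vector cells over all genes, 0.11, or, for counts, by at most 1.5 times. The number of members that rose at least 1.5-fold went from 2 to 1 with a pseudocount of 1, after rescaling to the same sum and at a 2-fold threshold, since GEMIN4 lies close to 1.5-fold. It was 2 against Dox-treated vector cells as well, but these were GEMIN5 and SMN2. As a mean over the list, the Cajal body value was 0.33 in place of 0.16. The median of the SMN complex stayed between 0.28 and 0.38 in MYC cells, and the mean over its members was 0.41. In vector cells the median lay between -0.01 and 0.03, so its sign depended on the setting. For single members 5 of 89 values moved further than 0.11. Against Dox-treated vector cells these were SMN2 at 0.59, GEMIN6 at 0.16 and GEMIN7 at 0.36, against the mean of the other 3 libraries SMN2 at 0.49, and with a pseudocount of 1 GEMIN5 at 1.17. No member changed sign in MYC cells under any of these settings, and the cause of the other shifts was not tested. GEMIN8 averaged under 5 FPKM, so it has no value under a 5 FPKM filter.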

Other observations

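Of 19 listed U snRNA genes, 7 had an entry in the table, and 4 of these were listed at 0 in every library. RNU6ATAC, the U6atac snRNA of the minor spliceosome, which like U6 carries an LSm ring and is no substrate of the SMN complex, was listed at 0, 13.7, 11.9 and 44.3 FPKM in vector cells without and with Dox and MYC cells without and with Dox. RNU4ATAC was listed above 0 only in Dox-treated MYC cells, at 7.38 FPKM, and RNU11 only in untreated MYC cells, at 5.54 FPKM. No fold is given for values set against 0. Counting errors were not estimated for these short RNAs, so no rise or fall is read from their values. The other 12 were not analysed here.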
